A study of Mus musculus with 21 samples.

Results

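The genes described here are 9 markers of blood-vessel endothelium (Kdr, Flt1, Tek, Tie1, Pecam1, Cdh5, Eng, Vwf and Sox17) and Vegfa, the growth factor that muscle fibres release towards those vessels. They were chosen by name, and not by a measured value, from the 46071 genes of an RNA-seq count table of mouse hindlimb muscle. Earlier results of these data were known when they were chosen. All 10 were found by their Ensembl identifiers, and all 10 were among the 12658 genes that passed the filter on low counts. The study asked how loss of 3 FoxO transcription factors in muscle alters the response to diabetes. Diabetes was induced with streptozotocin (STZ), which kills pancreatic beta cells and so removes insulin. Quadriceps and gastrocnemius were ground and mixed before RNA extraction.

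There were 6 STZ TKO, 5 STZ floxed, 6 TKO and 4 floxed libraries. TKO stands for the triple knockout of floxed Foxo1, Foxo3 and Foxo4 by ACTA1-Cre, a recombinase driven by the skeletal actin promoter, which is active in muscle fibres. The floxed mice were littermates with the same floxed alleles, and all groups share a mixed C57Blk6, C57Blk6J and 129 background. STZ mice received 150 mg/kg by intraperitoneal injection after a night without food, and females received 75 mg/kg more on day 3. Mice were kept in the study when random glucose stayed above 300 mg/dL. The libraries without STZ are labelled as having no drug, and the study's design describes injection of citrate buffer as the control. The labels give neither age nor sex for a library. The Cre driver is directed to fibres, and the endothelial markers report on another cell type of the same tissue.

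Muscle capillaries run along the fibres and deliver oxygen, glucose, fatty acids and insulin to them. Fibres release VEGF-A, which binds the receptors VEGFR2 (Kdr) and VEGFR1 (Flt1) on endothelial cells: VEGFR2 carries most of the growth and survival signal, while VEGFR1 binds the ligand tightly and limits how much reaches VEGFR2. A second receptor pair, TIE2 (Tek) and TIE1 (Tie1), stabilises vessels through the angiopoietins, and capillary loss in muscle is a known complication of diabetes.

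The stretches just before the RefSeq starts of the ligand and its 2 receptors are shown because these 3 genes carry the question of whether ligand and receptor transcripts move together. They are from RefSeq on GRCm38.p6, are given 5′ to 3′ on the minus strand, and capitals mark the letters TTCCGG, the reverse complement of the ETS core CCGGAA. The windows are chr17:46032378-46032537 for Vegfa, chr5:75978459-75978615 for Kdr and chr5:147726012-147726171 for Flt1.
Vegfa: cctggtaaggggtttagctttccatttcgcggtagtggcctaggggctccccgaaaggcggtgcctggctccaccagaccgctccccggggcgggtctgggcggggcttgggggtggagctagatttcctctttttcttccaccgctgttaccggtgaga
Kdr: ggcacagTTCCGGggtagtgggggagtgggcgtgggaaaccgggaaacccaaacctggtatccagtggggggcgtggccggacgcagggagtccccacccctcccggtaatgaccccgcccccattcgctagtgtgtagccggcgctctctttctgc
Flt1: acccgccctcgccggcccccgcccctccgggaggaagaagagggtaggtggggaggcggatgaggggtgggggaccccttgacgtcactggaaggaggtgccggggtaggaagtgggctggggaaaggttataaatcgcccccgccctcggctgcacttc

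Of the 10 genes, 6 had a promoter entry (Vegfa, Kdr, Flt1, Tek, Tie1 and Eng), in 7 windows of 250 bases before to 50 after the start, since Vegfa had a second start inside the gene. The FoxO binding element GTAAACA, searched on both strands, was in 0 of these 7 windows and in 3.65% of all 32851 promoters of the table. The hypoxia response element core ACGTG was in 1 of 7, the internal Vegfa window, and in 19.6% of all promoters. The ETS core CCGGAA was in 1 of 7, the Kdr window, and in 14.9% of all. The printed bases before the starts were rich in G and C, at 63.1% for Vegfa, 66.9% for Kdr and 68.8% for Flt1. A match is a description of these letters in these windows.

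Library totals were 3586183 to 6234979 counts in STZ TKO, 3377613 to 7676700 in STZ floxed, 2951290 to 6014870 in TKO and 4176132 to 7687823 in floxed muscle. Of the 3 targeted genes, 2 fell and Foxo3 did not. Foxo4 fell by 4.67 on the log2 scale under STZ and by 4.66 without STZ, and Foxo1 by 1.84 and 2.22, with each TKO library below each floxed library for both. Foxo3 had 136 ± 60.7 CPM in STZ TKO and 90.3 ± 14.0 CPM in STZ floxed muscle, and 96.1 ± 16.6 CPM in TKO and 73.1 ± 11.3 CPM in floxed muscle (log2 fold changes 0.59 ± 0.23, adjusted p = 0.148, and 0.40 ± 0.25, adjusted p = 0.616, edgeR). Whether its counted reads lie in the deleted part of the gene was not tested. Some libraries stood apart. STZ floxed library 17 and STZ TKO library 18 had the lowest summed blood cell and platelet markers (5.27 and 9.39 CPM, against at least 23.1 CPM in each of the other 19 libraries). The 14 macrophage markers summed to 294 to 2519 CPM in STZ TKO, 186 to 291 in STZ floxed, 300.04 to 1998 in TKO and 171 to 220 in floxed libraries, and were above 0 in each library. STZ TKO libraries 4 and 15 and TKO libraries 16 and 20 had the highest sums.

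Per length of transcript, Vegfa was the most abundant of the 10, at 46.6 ± 14.8 CPM per kilobase of exon (mean ± SD over 21 libraries). Cdh5, which encodes VE-cadherin, the adhesion molecule of endothelial junctions, followed with 24.4 ± 4.29. These 2 steps, from Vegfa to Cdh5 and from Cdh5 to Eng, exceeded the SDs of the neighbours. Below them came Eng (13.2 ± 3.34), Tie1 (9.14 ± 2.40), Flt1 (8.18 ± 1.99), Pecam1 (7.99 ± 1.43), Tek (6.47 ± 1.19), Kdr (4.39 ± 1.64), Vwf (3.24 ± 1.08) and Sox17 (2.01 ± 0.571) CPM per kilobase. Each of these overlapped its neighbour in the order within 1 SD. The defining endothelial markers were therefore all present in each library, and Sox17 had the fewest reads, 23 to 103 counts per library.

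**Figure D1:**
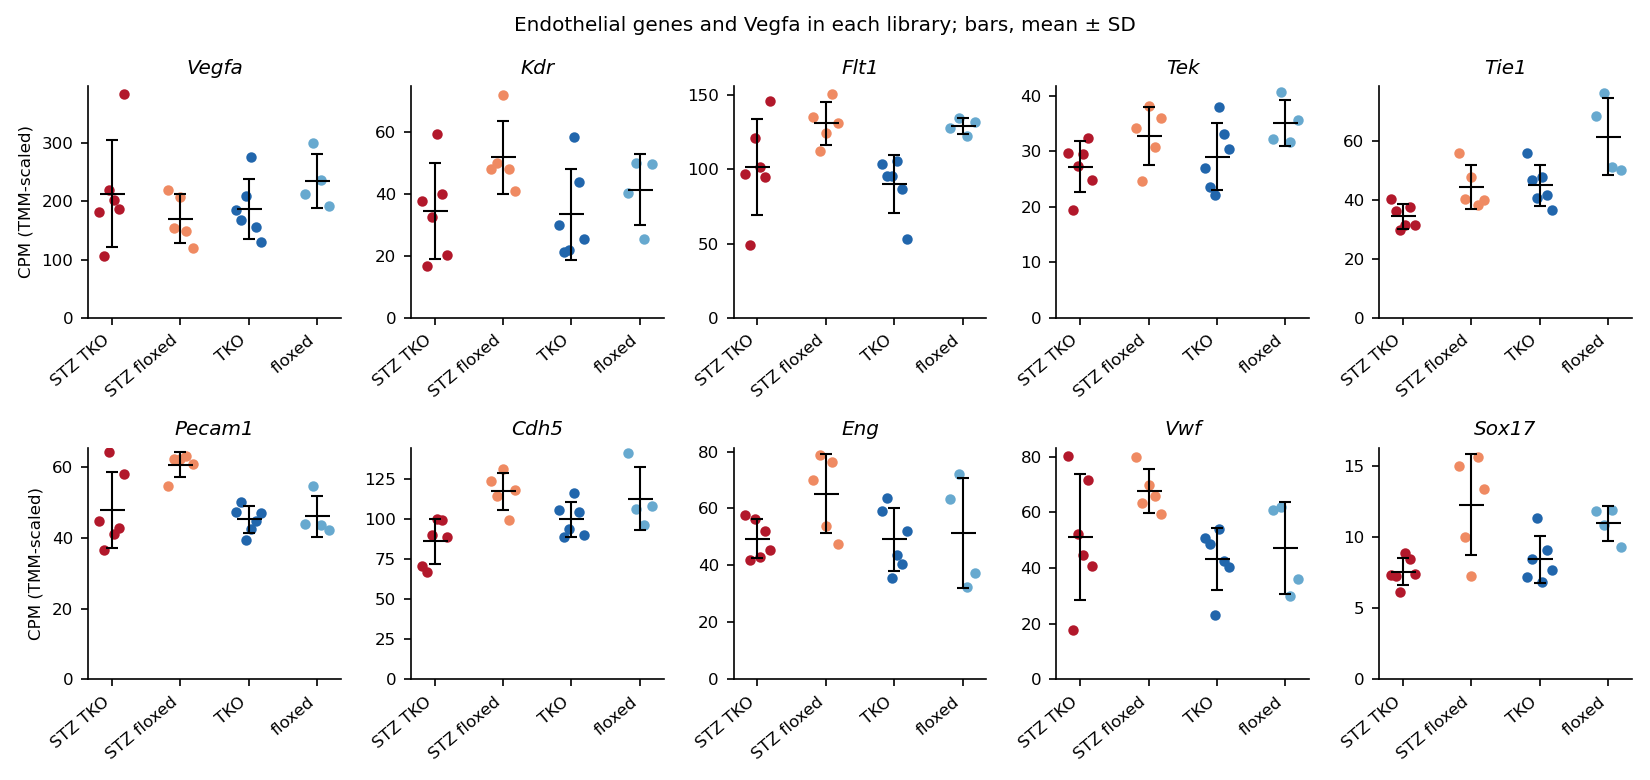
Level of Vegfa and the 9 endothelial genes in each library, in CPM scaled by TMM factors (y axis, linear from 0), for STZ TKO (6), STZ floxed (5), TKO (6) and floxed (4) libraries. Points are libraries and bars are the mean ± SD; Flt1 in TKO muscle lies wholly below floxed muscle, Sox17 is lowest on average in STZ TKO muscle, and Vegfa has 1 STZ TKO library at 384 CPM.

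Under STZ, all 9 endothelial genes had lower mean levels in TKO than in floxed muscle, and Vegfa had a higher mean, but among the 10 only Sox17 passed the test. Sox17, a transcription factor of arterial endothelium, had a lowest value of 6.13, a median of 7.38 and a highest value of 8.88 CPM in STZ TKO libraries, against 15.0, 10.0, 7.28, 15.6 and 13.4 CPM in STZ floxed libraries 3, 7, 14, 17 and 21. Of the 5 STZ floxed libraries, 4 lay above all 6 STZ TKO libraries, and library 14 lay among them. Sox17 (chromosome 1, 4490931 to 4497354, minus strand, GRCm38) averaged 7.58 ± 0.971 CPM in STZ TKO and 12.3 ± 3.54 CPM in STZ floxed muscle (SD, n = 6 and 5). It fell to 0.617-fold, a log2 fold change of -0.70 ± 0.20 (SE; adjusted p = 0.0419, edgeR's quasi-likelihood test with Benjamini-Hochberg adjustment over all genes). Of all genes tested, 4.89% passed in this comparison and 2.42% passed as lower, so 1 of 10 is little above the background. In tissue RNA, fewer endothelial cells and less of a transcript in each cell cannot be told apart. With 1 library left out at a time, this call was kept in 8 of 21 fits (adjusted p 0.0129 to 0.116) and lost without library 1, 2, 3, 4, 5, 8, 9, 11, 15, 16, 17, 18 or 21. It was also lost without libraries 17 and 18 together (adjusted p 0.143) and without libraries 4, 15, 16 and 20 (0.113), with the change at -0.59 and -0.72.

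Cdh5 (chromosome 8, 104101625 to 104144511, plus strand) had a lowest value of 67.03, a median of 89.6 and a highest value of 100.1 CPM in STZ TKO libraries, against 123.6, 114.6, 131.1, 99.6 and 118.1 CPM in STZ floxed libraries. The groups overlapped only through STZ TKO library 12 and STZ floxed library 17. The log2 fold change was -0.45 ± 0.15 with an adjusted p of 0.0817 by edgeR, which does not pass, while DESeq2 gave an adjusted p of 0.0179.

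The receptors of VEGF-A lay lower on average but varied widely between STZ TKO libraries. Kdr (chromosome 5, 75932827 to 75978458, minus strand) ranged from 16.7 to 59.5 CPM around a median of 35.2 in STZ TKO, against 48.2, 49.9, 72.0, 48.0 and 40.9 CPM in STZ floxed libraries, with 5 of the 6 STZ TKO libraries below all STZ floxed ones. Its log2 fold change was -0.58 ± 0.30 (adjusted p = 0.297, edgeR). Flt1 (chromosome 5, 147561604 to 147726011, minus strand) ranged from 48.8 to 145.6 around a median of 99.3 CPM in STZ TKO, against 112.3 to 150.9 CPM around a median of 130.8 in STZ floxed libraries. Its log2 fold change was -0.36 ± 0.21 (adjusted p = 0.362). For the other 5 endothelial genes the log2 fold changes lay between -0.40 and -0.27, with adjusted p-values between 0.202 and 0.482. These were Tek and Tie1, Pecam1 (PECAM-1, an adhesion molecule of endothelium that leukocytes and platelets share), Eng (endoglin, a co-receptor of BMP and TGF-beta ligands) and Vwf (von Willebrand factor, which tethers platelets). The unadjusted p was below 0.05 for 4 of the 10 genes, Sox17, Cdh5, Tie1 and Pecam1, against 18.7% of all genes.

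A single library weighed on the low end of the STZ TKO group. Library 8 was the lowest of its group for 8 of the 10 genes and the lowest of all 21 libraries for 7, with 291 CPM summed over the 9 endothelial genes. It also had the highest share of mitochondrially encoded counts of the series, 8.46%, and 3586183 counts in all. The other 5 STZ TKO libraries summed to 460 to 480 CPM, below the 547 to 617 CPM of the 5 STZ floxed libraries. The share of all genes that separate in this way under STZ is not reported here, so this separation of sums has no background beside it. Flt1 and Cdh5, with the highest mean CPM of the 9, weighed most in these sums. The same sums overlapped without STZ, at 383 to 513 CPM in TKO and 445 to 607 CPM in floxed libraries. Under STZ, the sums of the other endothelial genes described below also overlapped. They were 766 to 947 CPM in STZ TKO and 874 to 1146 CPM in STZ floxed libraries. Without library 8 the Sox17 change was -0.69 (adjusted p = 0.0538) and the Kdr change was -0.45 (0.425).

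Without STZ, all 10 genes had negative fold changes in TKO muscle, and 0 of 10 passed the test. Of all genes tested, 0.514% passed, 65 genes in number, and 49.5% had a negative fold change. Flt1 had 103.4, 95.4, 95.7, 105.6, 86.5 and 52.8 CPM in TKO libraries 2, 6, 10, 13, 16 and 20, against 127.7, 134.8, 122.5 and 131.5 CPM in floxed libraries 1, 5, 9 and 19. Each TKO library was below each floxed library, a separation in this direction that 2.61% of all genes showed. The Flt1 log2 fold change was -0.52 ± 0.22 (unadjusted p = 0.0248, adjusted p = 0.314, edgeR; 0 of 10 genes also passed by DESeq2).

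Tie1 (chromosome 4, 118471191 to 118490061, minus strand), the orphan receptor that pairs with TIE2, had 36.6 to 56.0 CPM around a median of 44.2 in TKO libraries, against 68.4, 76.3, 51.0 and 50.3 CPM in floxed libraries. Of the 6 TKO libraries, 5 lay below all floxed libraries, and TKO library 2 lay among them. The log2 fold change was -0.45 ± 0.17 (unadjusted p = 0.0123, adjusted p = 0.233). These 2 genes were the members with an unadjusted p below 0.05, which 11.5% of all genes had. Sox17 had 6.86 to 11.3 CPM around a median of 8.09 in TKO libraries, against 11.8, 10.9, 11.9 and 9.30 CPM in floxed libraries (log2 fold change -0.38 ± 0.21, adjusted p = 0.534). Pecam1, Eng and Vwf differed least, with log2 fold changes of -0.03 ± 0.16, -0.06 ± 0.22 and -0.12 ± 0.30, and Pecam1 turned positive, at 0.02, with upper quartile scaling.

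Averaged over both STZ states, which uses all 21 libraries, Sox17 and Tie1 fell in TKO muscle and the other 8 genes did not pass. Sox17 changed by -0.54 ± 0.14 on the log2 scale (0.688-fold, adjusted p = 0.0184, edgeR) and Tie1 by -0.41 ± 0.12 (0.752-fold, adjusted p = 0.0241). Of all genes, 9.8% passed in this comparison and 4.23% as lower, against 2 of 10 members. Flt1 (-0.44 ± 0.15, adjusted p = 0.0633) and Cdh5 (-0.31 ± 0.11, 0.0678) lay just outside the threshold. Both passed by DESeq2, with runs of consecutive library codes as a block, and without libraries 17 and 18. Sox17 kept its call when any 1 library was left out, and Tie1 in 17 of 21 such fits, losing it without libraries 1, 3, 5 or 20 (adjusted p up to 0.0699). For the remaining members the averaged log2 fold changes were -0.44 ± 0.22 for Kdr, -0.27 ± 0.12 for Tek, -0.26 ± 0.21 for Vwf, -0.23 ± 0.15 for Eng and -0.18 ± 0.11 for Pecam1.

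Macrophage transcripts moved with genotype in the same comparison. All 14 macrophage markers rose in the averaged comparison, with a median log2 fold change of 2.00, and leukocytes also express Pecam1, Eng and Flt1. With the macrophage marker level of each library as a covariate, the median log2 fold change of the 9 endothelial genes was -0.33 under STZ, against -0.40 without the covariate, and 9 of 9 stayed negative. In the averaged comparison the Sox17 and Tie1 changes with the covariate were -0.55 and -0.44, of about the same size, but no longer passed (adjusted p 0.335 and 0.334). Without libraries 4, 15, 16 and 20 they were -0.54 (adjusted p = 0.0931) and -0.40 (0.103). In both STZ states the macrophage sums of all TKO libraries lay above those of all floxed libraries, so the covariate cannot be well separated from genotype. For that reason neither the kept sizes nor the lost calls in the covariate fit give the part of macrophage RNA. That part was not tested further.

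**Figure D2:**
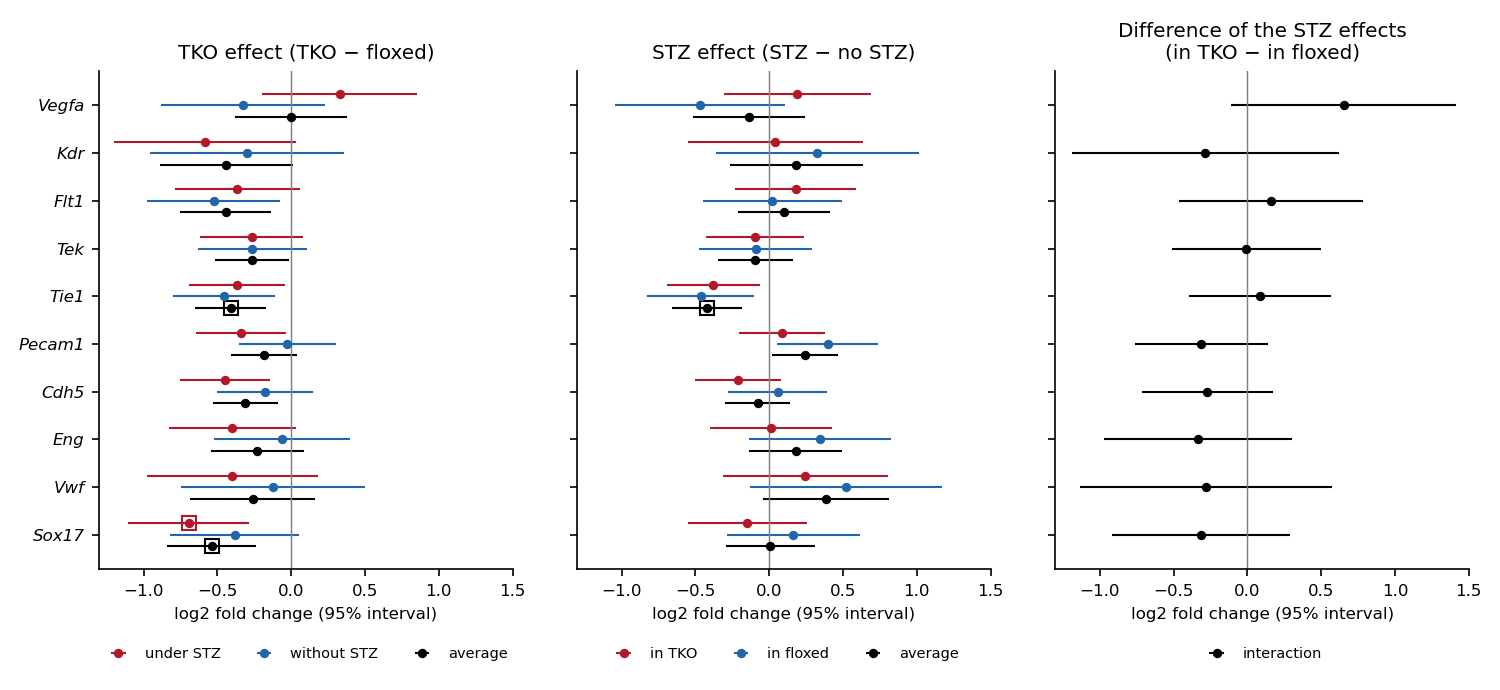
Log2 fold changes (x axis) with 95% intervals from edgeR's quasi-likelihood fit for the 10 genes (rows), for TKO against floxed muscle (left), STZ against no STZ (middle) and the difference of the STZ effects, in TKO minus in floxed muscle (right). Red is under STZ or in TKO, blue without STZ or in floxed, black the average or the interaction, and squares mark adjusted p below 0.05: Sox17 under STZ at -0.70, Sox17 and Tie1 in the averaged TKO effect, and Tie1 in the averaged STZ effect at -0.42.

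STZ itself left most of these genes without a detectable change. In TKO muscle 0 of 10 passed (0.142% of all genes did) and in floxed muscle 0 of 10 passed (1.35% of all genes). The share in floxed muscle is 171 genes, a count that was 31 without floxed library 1 and 333 without STZ floxed library 3, the extremes over fits that leave out 1 library, while the members' count stayed at 0. The exception was Tie1 in the average over genotypes, which fell by 0.42 ± 0.12 on the log2 scale (0.746-fold, adjusted p = 0.0376, edgeR), where 4.54% of all genes passed and 2.38% as lower. Tie1 ranged from 29.8 to 40.4 CPM around a median of 33.9 in STZ TKO libraries, against a range of 36.6 to 56.0 and a median of 44.2 in TKO libraries, and 5 of 6 TKO libraries lay above all STZ TKO ones. In floxed muscle it had 55.9, 40.1, 47.7, 38.4 and 39.9 CPM with STZ, against 68.4, 76.3, 51.0 and 50.3 CPM without, so that 4 of 5 STZ libraries lay below all libraries without STZ. The 2 effects were -0.38 ± 0.15 in TKO and -0.47 ± 0.17 in floxed muscle, and their difference was 0.09 ± 0.23 (95% interval -0.39 to 0.57). With 1 library left out at a time the averaged call was kept in 11 of 21 fits (adjusted p 0.017 to 0.0994) and lost without library 1, 2, 5, 7, 11, 12, 13, 17, 18 or 21. It was also lost without libraries 17 and 18 together (0.104). The group means ran in 1 order for Tie1: 34.5 ± 4.16 CPM in STZ TKO, 44.4 ± 7.38 in STZ floxed, 44.9 ± 6.84 in TKO and 61.5 ± 12.9 CPM in floxed muscle, where the middle 2 did not differ beyond their spread.

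Its partner Tek (TIE2, chromosome 4, 94739289 to 94874976, plus strand) did not pass for STZ, with log2 fold changes of -0.10 ± 0.16 in TKO and -0.09 ± 0.19 in floxed muscle. Pecam1 (chromosome 11, 106654217 to 106750628, minus strand) had a higher mean with STZ in floxed muscle. It had 54.4, 62.2, 62.3, 63.1 and 60.8 CPM in STZ floxed libraries, against 43.7, 54.6, 43.6 and 42.2 CPM in floxed libraries, with floxed library 5 at the level of STZ floxed library 3. Its log2 fold change of 0.40 ± 0.17 did not pass (unadjusted p = 0.0248, adjusted p = 0.26, edgeR), and it was 0.09 ± 0.14 in TKO muscle. Vwf (chromosome 6, 125546774 to 125686679, plus strand) had log2 fold changes for STZ of 0.24 ± 0.27 in TKO and 0.52 ± 0.31 in floxed muscle, and Eng (chromosome 2, 32646595 to 32682669, plus strand) of 0.01 ± 0.20 and 0.35 ± 0.23, with adjusted p-values between 0.463 and 0.989. Both varied widely within floxed muscle, where Vwf had 61.0, 61.8, 30.1 and 36.0 CPM and Eng had 63.4, 72.1, 32.6 and 37.4 CPM in libraries 1, 5, 9 and 19, so libraries 1 and 5 were high for both and 9 and 19 low.

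The test of whether the STZ effect differs by genotype passed for 0 of 10 genes (0.0079% of all genes, 1 gene, did), and 0 of 10 had an unadjusted p below 0.05, against 3.89% of all genes. For 7 of the 9 endothelial genes the difference was negative, between -0.33 and -0.01, with intervals that reach from -1.19 to 0.62. Differences of that size were not detectable with these libraries.

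Vegfa (chromosome 17, 46016993 to 46032369, minus strand) did not pass in any of the 7 comparisons. It had 181.7, 106.8, 218.7, 202.3, 186.7 and 384.0 CPM in STZ TKO libraries 4, 8, 11, 12, 15 and 18, against 219.5, 154.1, 208.2, 148.5 and 120.0 CPM in STZ floxed libraries. Library 18 held the highest and library 8 the lowest Vegfa level of the series, and both belong to the STZ TKO group. Without STZ it had 130.1 to 276.8 CPM around a median of 176.2 in TKO libraries, against 212.4, 299.6, 237.0 and 191.4 CPM in floxed libraries, with 4 of 6 TKO libraries below all floxed ones. The TKO effect was 0.33 ± 0.25 on the log2 scale under STZ (adjusted p = 0.537) and -0.33 ± 0.27 without STZ (0.751), and the average was 0.00 ± 0.18 with a 95% interval of -0.38 to 0.38. The STZ effect was 0.19 ± 0.24 in TKO and -0.47 ± 0.28 in floxed muscle. The difference between those effects, 0.65 ± 0.37, had an unadjusted p of 0.0888 and an adjusted p of 1, and leaving out 1 library moved it between 0.40 and 0.80. Without library 18 alone the STZ effect in TKO muscle was at its lowest, -0.06.

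Among 10 VEGF family ligands and receptors, which include Vegfa, Flt1 and Kdr, 0 passed in any of the 7 comparisons by edgeR. Among 14 regulators of Vegfa, 2 fell in STZ TKO against STZ floxed muscle and 0 rose, with a list median of 0.02, against 0.03 for all genes. Of all genes, 2.42% passed as lower there. Arnt, the partner of the HIF alpha subunits, had 77.9 ± 18.2 CPM in STZ TKO and 126 ± 25.1 CPM in STZ floxed muscle (log2 fold change -0.69 ± 0.16, adjusted p = 0.0146, edgeR). Prkaa2, the catalytic subunit of AMP-activated kinase that predominates in muscle, had 469 ± 163 CPM in STZ TKO and 1049.7 ± 539 CPM in STZ floxed muscle (-1.16 ± 0.33, 0.0449). Neither passed with the macrophage covariate or without libraries 4, 15, 16 and 20. The 14 regulators summed to 2939 CPM in STZ floxed library 17, against 1403 to 1734 CPM in the other STZ floxed libraries. The weight of library 17 in the Prkaa2 call is not reported here.

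Hypoxia-responsive genes changed in both directions, with 19 of the 20 tested. Under STZ, 3 fell and 1 rose in TKO muscle, with a list median of 0.11 that was -0.04 without libraries 17 and 18. Of all genes, 4.89% passed in this comparison and 2.42% as lower. Pfkfb3, an activator of glycolysis, had 156 ± 89.7 CPM in STZ TKO and 942 ± 316 CPM in STZ floxed muscle (log2 fold change -2.59 ± 0.49, adjusted p = 0.00273), and fell by 2.81 ± 0.51 without STZ (0.0074). Bnip3, a mitophagy receptor, fell by 1.24 ± 0.33 (0.0319) and Mxi1, an antagonist of MYC, by 0.96 ± 0.16 (0.001), both under STZ. Car9, a carbonic anhydrase and a classical HIF target, rose by 2.22 ± 0.40 (0.00174), to 3.97 ± 1.14 CPM in STZ TKO, against 0.821 ± 0.482 CPM in STZ floxed muscle. When the macrophage covariate was in the fit, 1 of the list rose and 0 fell. Vegfa, itself a classical HIF target, did not pass in either STZ state.

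Of 30 other endothelial genes, 27 had negative log2 fold changes in STZ TKO against STZ floxed muscle, with a median of -0.30, and 0 passed. The median of the 9 markers was -0.40, and among all genes 46.4% were negative with a median of 0.03. Without STZ, 20 of the 30 were negative with a median of -0.18, against -0.26 for the 9 markers. Against 4.23% of all genes that passed as lower, 3 of the 30 fell in the averaged comparison. These were Aqp1, the water channel of capillary endothelium (-0.46 ± 0.14, adjusted p = 0.0423), Podxl, a sialomucin of the luminal surface (-0.49 ± 0.12, 0.0146), and Ushbp1 (-0.68 ± 0.19, 0.0209). Podxl had 36.0 ± 7.34 CPM in STZ TKO and 53.9 ± 4.03 in STZ floxed muscle, and 47.9 ± 6.87 CPM in TKO and 63.1 ± 17.4 in floxed muscle. The count of 3 was 6 with the code runs as a block and by DESeq2, 0 when macrophage level was a covariate, and 1 without libraries 4, 15, 16 and 20.

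Of 13 mural cell markers, 10 were negative under STZ with a median of -0.28, and Myh11, the smooth-muscle myosin heavy chain, fell to 31.1 ± 6.49 CPM in STZ TKO, against 58.5 ± 13.9 CPM in STZ floxed muscle (-0.90 ± 0.22, adjusted p = 0.0183). In the averaged comparison Myh11 (-0.65 ± 0.16, 0.0121) and Rgs5, a pericyte marker (-0.46 ± 0.13, 0.0243), fell. Of all genes, 2.42% passed as lower under STZ and 4.23% in the averaged comparison. Neither Myh11 nor Rgs5 passed in the averaged comparison with the macrophage covariate or without libraries 4, 15, 16 and 20. Of 13 tested Notch and arteriovenous genes, 0 passed in any comparison, with a median of -0.18 under STZ. Of 5 tested lymphatic endothelial markers, 5 were negative under STZ with a median of -0.26, and 0 passed.

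**Figure D3:**
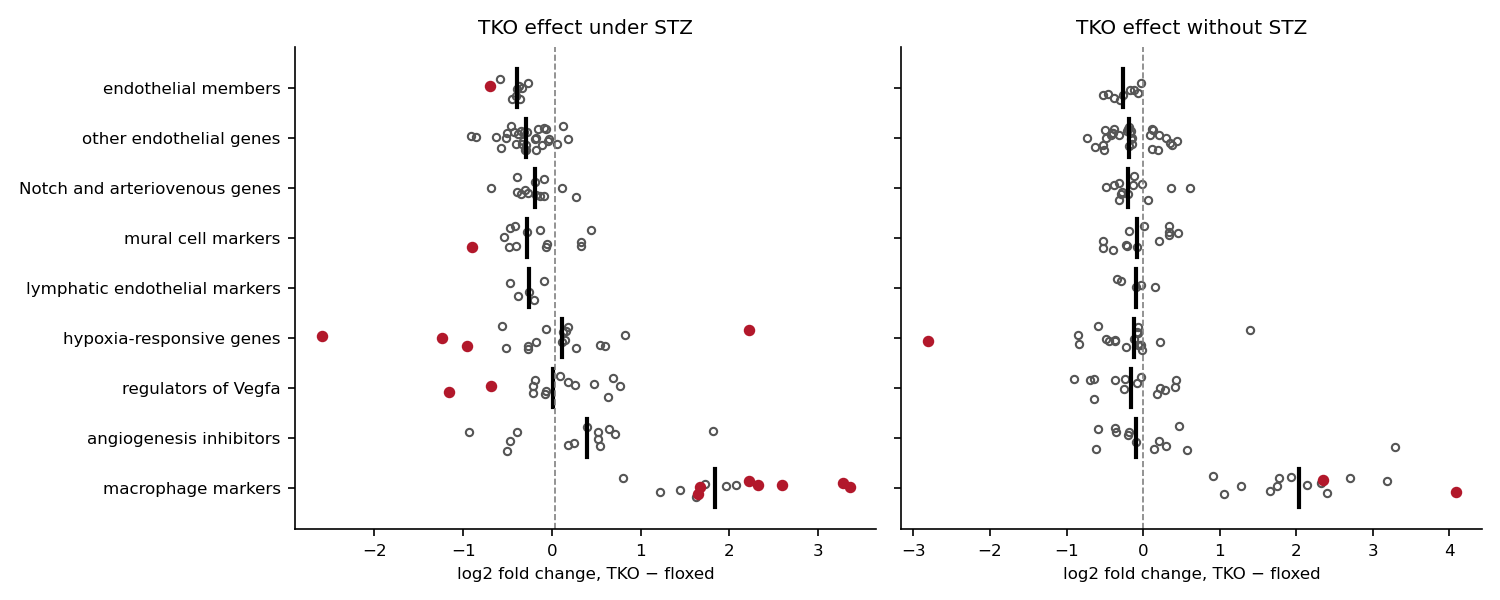
Log2 fold change of TKO against floxed muscle (x axis) for each tested gene of 9 lists (rows), under STZ (left) and without STZ (right). Open points did not pass, red points had an adjusted p below 0.05, black bars are list medians and the dashed line is the median of all genes. The 9 endothelial markers have medians of -0.40 and -0.26 and the macrophage markers of 1.84 and 2.03.

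Whether libraries with more Vegfa also had more of the endothelial transcripts was tested over the 21 libraries, as 9 relations on log2 CPM. None of the 9 passed after adjustment. Flt1 came nearest, with Pearson's r = 0.58 (permutation p = 0.0071, adjusted p = 0.0639) and Spearman's rho = 0.47 (permutation p = 0.0333, adjusted p = 0.3). The other r values were 0.11 for Pecam1, 0.23 for Cdh5, 0.14 for Kdr, 0.27 for Tek, 0.25 for Tie1, 0.17 for Vwf, -0.11 for Sox17 and -0.06 for Eng, with adjusted p of 0.708 to 0.805. After subtraction of the group means, Flt1 had r = 0.76 (permutation p = 0.00015, adjusted p = 0.00135) and rho = 0.54 (adjusted p = 0.112). After subtraction of the effects of group and of code run, the values were r = 0.70 (adjusted p = 0.00423) and rho = 0.71 (adjusted p = 0.00468). The permutations treated the subtracted values as free, with no allowance for the fitted effects, so the p-values after subtraction are too small.

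The Flt1 relation was weaker without the extremes of Vegfa. Leaving out libraries 18 and 8, the 2 farthest from the median of Vegfa, lowered r for Flt1 to 0.35 (permutation p = 0.145) over the 19 others, and to 0.51 (permutation p = 0.0232, adjusted p = 0.119) after subtraction of group means. Over the same 19 libraries Tie1 had r = 0.49 (permutation p = 0.035, adjusted p = 0.315). After subtraction of group means it had r = 0.51 (permutation p = 0.0264, adjusted p = 0.119). The Flt1 relation had not passed over all 21 libraries either. Libraries 18 and 8 set the range of Vegfa, and a narrower range can by itself lower r. Library 18 had 384.0 CPM of Vegfa and 145.6 of Flt1, and library 8 had 106.8 and 48.8 CPM. Library 18 had 20.4 CPM of Kdr, the second lowest value of its group, beside the highest Vegfa. All these transcripts were read from the same libraries, so composition and depth are shared between them.

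**Figure D4:**
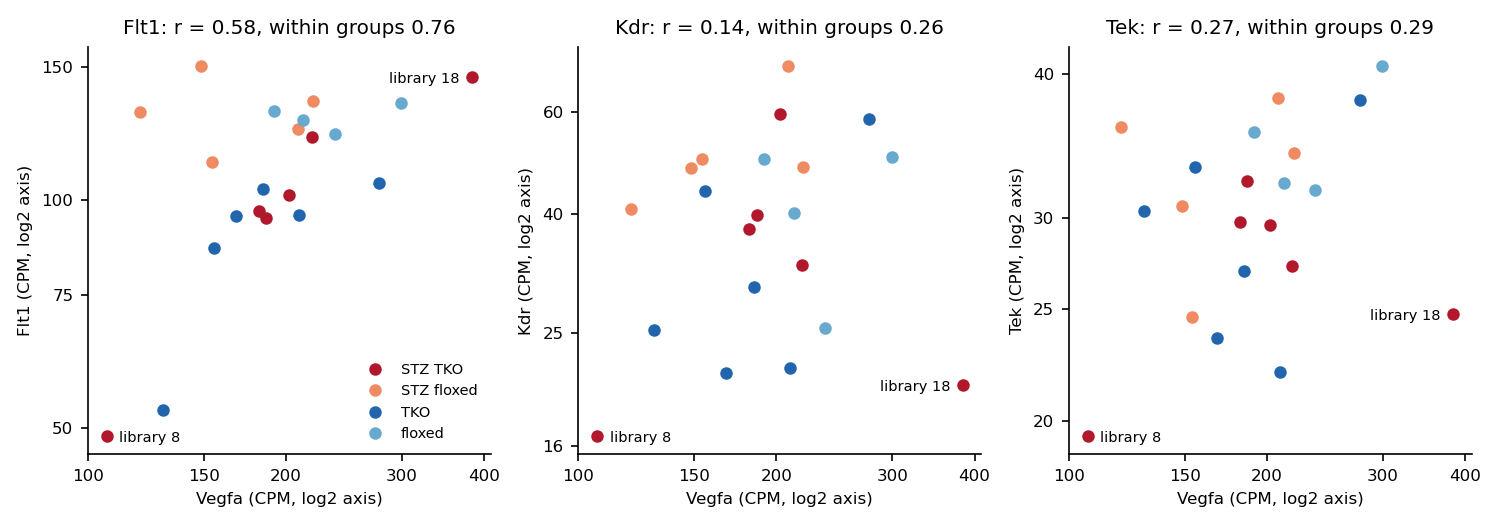
Vegfa (x axis) against Flt1, Kdr and Tek (y axes), all in CPM on log2 axes, for the 21 libraries coloured by group. Titles give Pearson's r over all libraries and after subtraction of group means; libraries 8 and 18, at 107 and 384 CPM of Vegfa, set the ends of the Flt1 relation.

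The 9 endothelial genes were unevenly correlated between libraries of a group. After subtraction of group means, the highest correlation over the 21 libraries was between Kdr and Tek (r = 0.77), followed by Flt1 and Vegfa (0.76), Vwf and Eng (0.64) and Tek and Vwf (0.63). Sox17, which had the fewest reads, had r between -0.32 (with Pecam1) and 0.09 (with Flt1). Some pairs without Sox17 were also low, among them Pecam1 and Kdr (-0.03), Tek and Eng (-0.01) and Flt1 and Tie1 (0.08). Vegfa had r = 0.26 with Kdr and 0.08 with Eng. The part of counting noise in the low values was not tested.

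Among 9840 genes whose mean was 2 or more in log2 CPM, those most like Vegfa after subtraction of group means were Gpr157 (r = 0.91), Zc3h4 (0.87), Smg6 (0.85), Smad3 (0.83) and Usp19 (0.83). Those most like the mean standardised level of the 9 endothelial genes were Ccdc97 (0.91), Ints1 (0.88), Camta2 (0.87), Plec (0.87) and Depdc5 (0.86). These are descriptions over 21 libraries, in which genes that share library composition also correlate.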

How the data were processed

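The authors deposited a table of raw read counts per Ensembl gene, 1 column per library. Per the submitters' processing notes, reads were aligned with STAR and counted with featureCounts on GRCm38.p4; for versions, annotation and strand setting, the sources used here give nothing. Per the labels' protocols, the libraries were directional. Symbols and coordinates came from GENCODE mouse release 21 (45229 of 46071 identifiers matched; unmatched ones held 0.0478% of counts).

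Genes were filtered by filterByExpr (12658 kept), scaled by TMM (factors 0.862 to 1.35) and fitted with edgeR 4.0.16 in R 4.3.3 as 4 group means over all 21 libraries, with robust quasi-likelihood tests, two-sided, and Benjamini-Hochberg adjustment over all genes in each of 7 comparisons at 0.05. SE is the size of the log2 fold change divided by the root of F. CPM uses TMM-scaled library sizes; log2 CPM a prior count of 2. The TKO comparisons under and without STZ share no library, but the averaged comparisons reuse theirs. Relations of Vegfa used 100000 permutations, two-sided, adjusted over 9 relations. Alternatives were DESeq2 1.42.0, other scalings, no filter, code run as a block, macrophage level as a covariate, the compared groups only, and libraries left out; list counts under these, and the relation with 19 libraries after subtraction of group means, were added after seeing the data. The edgeR test was checked on simulated counts, and the relation test on simulated normal values without subtraction of effects.

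Libraries are named by title number. The labels do not say that each is a separate animal, so p-values reflect library-to-library spread, which may be technical. All 46 pairs within a group differed by more than counting noise (chi-square over its degrees of freedom at least 8.61). The 6 runs of consecutive library codes are not called batches by the labels. The members, the 18 lists and the libraries in doubt were chosen with earlier results of these data known. Named genes were all members, Foxo1, Foxo3 and Foxo4, and the 5 genes most like each pattern. List genes were named only when past the threshold, at most 6 per list and comparison, and not all of those were named. Library totals of 2951290 to 7687823 counts set the precision.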

Additional observations from a re-analysis of the deposited data

Results flagged for a closer look

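In 40 sets of 1 gene in 1 group, 4 held a library far from the rest by Dixon's test at 95%, which chance gives in about 1 in 20 sets. Flt1 in TKO library 20 was 52.8 CPM, the lowest of 6, with the next at 86.5 CPM. Kdr in STZ floxed library 14 was 72.0 CPM, the highest of 5, with the next at 49.9 CPM. Pecam1 in STZ floxed library 3 was 54.4 CPM, the lowest of 5, with the next at 60.8 CPM. Pecam1 in floxed library 5 was 54.6 CPM, the highest of 4, with the next at 43.7 CPM.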

How the results depend on the processing

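No paired analysis was possible because the title numbers are unique to each library; runs of consecutive library codes, of which only some hold all 4 groups, were fitted as a block instead. Under the alternatives other than leaving out 1 library, 557 values of single genes kept their direction and side of the threshold, 13 lost and 7 gained a call, and 23 changed sign. The 4 calls of the report (Sox17 for TKO under STZ and averaged, Tie1 for TKO averaged and STZ averaged) kept their sign in each alternative run. Depth limits Sox17 most, with 23 to 103 counts per library.

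Members past the threshold numbered 1 for TKO under STZ, 2 for TKO averaged over STZ and 1 for STZ averaged over genotype. These counts were 0, 0 and 0 with no filter on low counts, and 0, 4 and 0 without libraries 17 and 18. The TKO counts were 0 and 0 with the macrophage covariate, 0 and 0 without libraries 4, 15, 16 and 20, and 2 and 4 by DESeq2. The averaged TKO count was 4 with the code-run block, and the count under STZ was 0 with the compared groups only. Leaving out 1 library gave 0 to 1, 1 to 3 and 0 to 1. Relations of Vegfa past the threshold numbered 0 over all libraries, and 1 after subtraction of group means or of group and code-run effects. The p-values after subtraction make no allowance for the fitted effects. The causes were not tested.

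Signs changed as follows, on the log2 scale. With upper quartile scaling, Pecam1 was 0.023 for TKO without STZ, Eng -0.036 for STZ in TKO and Sox17 -0.021 for STZ averaged. With no filter, Eng was -0.0038 for STZ in TKO, Vegfa -0.0096 for TKO averaged and Sox17 -0.0051 for STZ averaged. With the code-run block, Flt1 was -0.057 for STZ in floxed, Eng 0.0079 for TKO without STZ, Tek 0.15 for the interaction and Vegfa -0.15 for TKO averaged. With the macrophage covariate Pecam1 was 0.043 for TKO without STZ. With the compared groups only, Pecam1 was 0.0021 for TKO without STZ and Eng -0.016 for STZ in TKO. Without libraries 17 and 18, Flt1 was -0.028 for STZ in floxed, Vegfa -0.068 for STZ in TKO and -0.14 for TKO averaged, and Sox17 -0.037 for STZ averaged. Without libraries 4, 15, 16 and 20, Eng was 0.0070 for TKO without STZ, Sox17 -0.014 for STZ averaged and Tie1 -0.13 for the interaction, and for STZ in TKO Kdr was -0.046, Vwf -0.205 and Eng -0.13.

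With 1 library left out, the sign depended on the library for STZ in floxed muscle in Cdh5 (-0.013 to 0.18) and Flt1 (-0.016 to 0.069). It did so for TKO without STZ in Pecam1 (-0.068 to 0.061), Vwf (-0.29 to 0.028) and Eng (-0.23 to 0.14). For STZ in TKO muscle it did so in Pecam1 (-0.014 to 0.15), Kdr (-0.18 to 0.27), Eng (-0.066 to 0.084) and Vegfa (-0.062 to 0.33). The same held for the interaction in Tek (-0.088 to 0.086) and Tie1 (-0.031 to 0.17), for TKO averaged in Vegfa (-0.12 to 0.069) and for STZ averaged in Sox17 (-0.048 to 0.081).

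Counts over all genes moved by more than 1.5 times in the following alternatives, and by leaving out 1 library except for TKO averaged. For TKO under STZ, 619 became 1068 with the block, 214 with the macrophage covariate, 312 with the compared groups only and 1011 by DESeq2. For TKO without STZ, 65 became 18 with the covariate, 125 without libraries 17 and 18, 40 without libraries 4, 15, 16 and 20, and 351 by DESeq2. For TKO averaged, 1240 became 125 with the covariate and 529 without libraries 4, 15, 16 and 20. For STZ in floxed, 171 became 286 with the covariate, 265 with the compared groups only and 425 by DESeq2. For STZ in TKO, 18 became 29 with no filter, 98 with the block, 34 with the covariate, 4 with the compared groups only, 28 without libraries 17 and 18 and 111 by DESeq2. For STZ averaged, 575 became 1006 with the block, 901 with the covariate, 312 without libraries 17 and 18 and 1100 by DESeq2. For the interaction, 1 became 2 with no filter, 0 with the block, 0 without libraries 4, 15, 16 and 20, and 4 by DESeq2. Leaving out 1 library gave 380 to 780 for TKO under STZ (lowest without STZ floxed 21), 32 to 105 for TKO without STZ (without floxed 5 and TKO 13) and 965 to 1401 for TKO averaged. It gave 7 to 61 for STZ in TKO (highest without STZ TKO 4), 31 to 333 for STZ in floxed, 216 to 1027 for STZ averaged (without floxed 1 and STZ TKO 8) and 0 to 2 for the interaction.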

Other observations

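Some genes of the vascular lists outside the 10 passed for STZ, while most did not. In floxed muscle, where 1.35% of all genes passed, 1 of 30 other endothelial genes did, and 0 did in the VEGF family, Notch and arteriovenous, mural, lymphatic and BMP co-receptor lists. There Ramp2, which pairs with the adrenomedullin receptor of endothelium, fell to 14.3 ± 5.23 CPM in STZ floxed, against 27.1 ± 3.85 CPM in floxed muscle (log2 fold change -0.91 ± 0.21, adjusted p = 0.0316, edgeR). Angptl4, an inhibitor of lipoprotein lipase, rose to 32.6 ± 11.7 CPM in STZ floxed, against 8.16 ± 3.76 CPM in floxed muscle (1.99 ± 0.44, 0.0269). Sparc, a matrix glycoprotein listed among angiogenesis inhibitors, fell by 1.97 ± 0.36 on the log2 scale (0.00684). Fibroblast markers moved with it: 12 of 13 were negative for STZ in floxed muscle, with a median of -0.80, and 3 fell. They summed to 1126 to 3415 CPM in STZ floxed and 4222 to 9666 CPM in floxed libraries, and their part in the Sparc result was not tested. In TKO muscle Cd36, a fatty acid transporter and receptor for thrombospondin, rose to 879 ± 259 CPM in STZ TKO, against 329 ± 108 CPM in TKO muscle (1.42 ± 0.23, 0.00676). The Ramp2 call was lost without libraries 17 and 18 and with the code runs as a block.

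Averaged over genotypes, Angpt2, the angiopoietin that antagonises TIE2 signalling in many settings, rose by 0.77 ± 0.20 (adjusted p = 0.0296), and Mmrn1, a marker of lymphatic endothelium that is also in platelets, by 0.80 ± 0.23 (0.048). Thbs1, which encodes thrombospondin-1, rose by 1.27 ± 0.30 (0.0194) and Serpinf1, which encodes PEDF, fell by 1.41 ± 0.32 (0.0156). Among all 12658 genes 4.54% passed there, 274 as higher and 301 as lower. Of 5 tested angiopoietins and TIE receptors 2 rose and 1, Tie1, fell, and 1 of 5 tested lymphatic markers rose. Of 13 tested angiogenesis inhibitors 2 rose and 2 fell. In the other direction, 1 of 30 other endothelial genes and 1 of 13 mural cell markers fell. In the same comparison 12 of 13 fibroblast markers were negative and 4 fell, against 2.38% of all genes that passed as lower. Angpt2 was low, at 4.21 ± 0.722 CPM in STZ TKO, 4.45 ± 1.14 in STZ floxed, 2.28 ± 0.862 in TKO and 2.80 ± 0.849 CPM in floxed muscle.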
